A study of Mus musculus with 11 samples.

Results

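The small leucine-rich proteoglycans (SLRPs) are secreted matrix proteins built around a short core of leucine-rich repeats. The 10 genes described here, Dcn, Bgn, Lum, Fmod, Ogn, Omd, Aspn, Prelp, Podn and Ecm2, were taken by symbol from a table of 47643 gene symbols. All 10 were found, each was above 0 in every one of the 11 libraries, and all 10 were among the 11979 genes that passed the filter on low values.

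SLRPs bind along collagen fibrils and set how the fibrils assemble, how thick they become and how they are spaced, and several also bind growth factors of the TGF-beta family. Decorin (Dcn), biglycan (Bgn) and asporin (Aspn) form one class, in which decorin and biglycan carry chondroitin or dermatan sulfate chains, and Ecm2 encodes a matrix protein with related repeats. Lumican (Lum), fibromodulin (Fmod), osteomodulin (Omd) and Prelp form a second class, marked by keratan sulfate chains or sulfated tyrosines. Osteoglycin (Ogn) and podocan (Podn) belong to further classes. Decorin is known as the main SLRP of the dermis, and soluble biglycan is known as a ligand of Toll-like receptors.

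Fibroblasts were sorted alive from normal back skin (NS) and from 5-day excisional wounds (5dw) by gating for CD140a and against CD45, with CD3, CD11b and F4/80 named in the labels as further negative markers. Act mice carried INHBA, which encodes the activin A subunit, under the K14 promoter, so that keratinocytes and not the sorted fibroblasts made the transgene product, and their wild-type (WT) littermates were the controls. Mice of all 4 groups were 9 to 12 weeks old and came from a cross that was 50% CD-1 and 50% C57Bl/6. There were 3 libraries each of WT NS, Act NS and WT 5dw and 2 of Act 5dw, numbered 1 and 3, because number 2 was left out in the study's quality control. Each library held RNA pooled from 3 mice, so the spread between libraries is that between pools, and 100 ng of RNA was used for NS and 200 ng for 5dw.

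Expression is given as RPKM, a read number divided by gene length and sequencing depth. The mapped total, recovered here from the RPKM values, was 18649321 to 39702138 per library. The summed RPKM of 10 fibroblast marker genes was 4817 to 6316 in NS and 6677 to 7464 in 5dw, although 3 of the 10 rose and 4 fell in WT wounds and 2 rose and 3 fell in Act wounds, and its most abundant gene was Col1a2 in every group. Pdgfra, which encodes CD140a, was at 29.6 RPKM or more in every library. The summed RPKM of 10 keratinocyte marker genes was 1240 to 4610 in NS and 124 to 1051 in 5dw, where WT 5dw library 3 stood apart at 1051 and the other 4 were at 304 or less. Of the 10, 9 fell in both genotypes. Ptprc, which encodes CD45, was at 0.0498 RPKM or less. Within NS, WT library 1 and Act library 1 stood apart from the other 4, so the wound comparisons below were also made without this pair. In bulk samples, fewer cells of a type and less RNA per cell cannot be told apart.

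The 10 genes lie at 5 places in the mouse genome (GENCODE M21, GRCm38), and 8 of them lie near another member. On chromosome 13, Ecm2 (49504810 to 49532789), Aspn (49544443 to 49567565), Omd (49582462 to 49592822) and Ogn (49608046 to 49624501) follow each other on the plus strand with gaps of 11653, 14896 and 15223 bases. All 4 lie inside the span of Cenpp on the minus strand, which was at 0.275 to 1.78 RPKM. On chromosome 10, Dcn (97479609 to 97518143) is followed on the plus strand by Lum (97565128 to 97572703). On chromosome 1, Prelp (133910304 to 133921414, minus strand) lies 115839 bases from Fmod (134037254 to 134048277, plus strand). Bgn is on chromosome X (73483602 to 73495933, plus strand) and Podn on chromosome 4 (108014791 to 108096445, minus strand). The annotated span of Podn overlaps Scp2 on the same strand, which was at 7.33 to 10.3 RPKM, and that of Prelp overlaps the antisense gene Gm15851, at 0.413 to 4.23 RPKM. The libraries were stranded, but the sources used here do not say whether counting used strand.

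RefSeq promoters (GRCm38.p6) were at hand for 8 of the 10 members, Dcn and Lum not among them. The 250 bases before the start are shown for the 2 members that rose in wounds, Bgn and Aspn, and for Ecm2, which fell the most and is the next gene to Aspn. Each was searched on both strands for CAGAC (a SMAD-binding element), the longer palindrome GTCTAGAC, TGANTCA (the AP-1 site), TATAAA and CCAAT, and matches are in capitals.
Bgn, chrX:73483351-73483600, plus strand: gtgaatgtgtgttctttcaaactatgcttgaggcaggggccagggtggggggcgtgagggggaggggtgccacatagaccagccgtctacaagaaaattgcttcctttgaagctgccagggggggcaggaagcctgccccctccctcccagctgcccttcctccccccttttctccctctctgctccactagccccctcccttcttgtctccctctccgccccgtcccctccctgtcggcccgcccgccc
Aspn, chr13:49544193-49544442, plus strand: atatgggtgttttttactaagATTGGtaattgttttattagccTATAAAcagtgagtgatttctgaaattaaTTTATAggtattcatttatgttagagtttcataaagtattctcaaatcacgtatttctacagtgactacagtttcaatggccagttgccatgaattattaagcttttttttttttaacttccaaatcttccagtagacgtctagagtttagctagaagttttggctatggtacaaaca
Ecm2, chr13:49504560-49504809, plus strand: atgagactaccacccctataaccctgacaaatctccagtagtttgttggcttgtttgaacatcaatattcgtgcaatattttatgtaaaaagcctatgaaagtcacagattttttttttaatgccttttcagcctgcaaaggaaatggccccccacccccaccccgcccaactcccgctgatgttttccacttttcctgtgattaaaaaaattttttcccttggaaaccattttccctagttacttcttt

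The Bgn and Ecm2 windows held none of these letters. The Aspn window held 2 matches to TATAAA, at -207 and -178 from the start, and 1 to CCAAT. In the full 300-base windows, which run 50 bases past the start, CAGAC was present in Prelp, Fmod and 1 of 2 Podn windows, and in 49.6% of all 32851 promoters of the table. TGANTCA was in 7.81% of all promoters and GTCTAGAC in 0.213%, and neither was in any of the 9 member windows. TATAAA was in Aspn and Ogn (13.6% of all promoters) and CCAAT in Aspn, Prelp and Fmod (37.4%). The member windows also differed in base composition, from 31.0% GC in Aspn to 77.0% in 1 of the 2 Podn windows, with Ecm2 at 41.0% and Bgn at 63.7%, beside a median of 52.7% over all promoters. A match of letters is a description of the sequence and not a site shown to be bound. Likewise, the lack of a match in these short windows does not show that a gene lacks a site. The paper searched a longer region and reports SMAD binding, promoted by activin in cultured fibroblasts, at a conserved element near Aspn.

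The members spanned almost 3 orders of magnitude in normal skin fibroblasts. In WT NS the order by mean RPKM was Dcn (4394 ± 442, SD, n = 3), Lum (1004 ± 96.9), Bgn (434 ± 126), Ogn (381 ± 72.7), Aspn (92.4 ± 15.1), Prelp (88.2 ± 10.4), Ecm2 (54.9 ± 10.4), Podn (29.8 ± 8.38), Fmod (7.15 ± 2.32) and Omd (5.92 ± 1.46). The ranges of Bgn and Ogn overlapped, as did those of Aspn and Prelp and those of Fmod and Omd, and the other neighbours in the order did not overlap. Dcn was the gene with rank 2 of all 47643 symbols in each of the 6 NS libraries, and Lum had rank 27 to 46. At the low end, Omd rested on 53 to 282 reads per library and Fmod on 278 to 1145, whereas the other 8 members rested on 574 reads or more. RPKM depends on the gene length the authors used, so levels of different genes are less exact than the change of one gene between libraries.

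**Figure D1:**
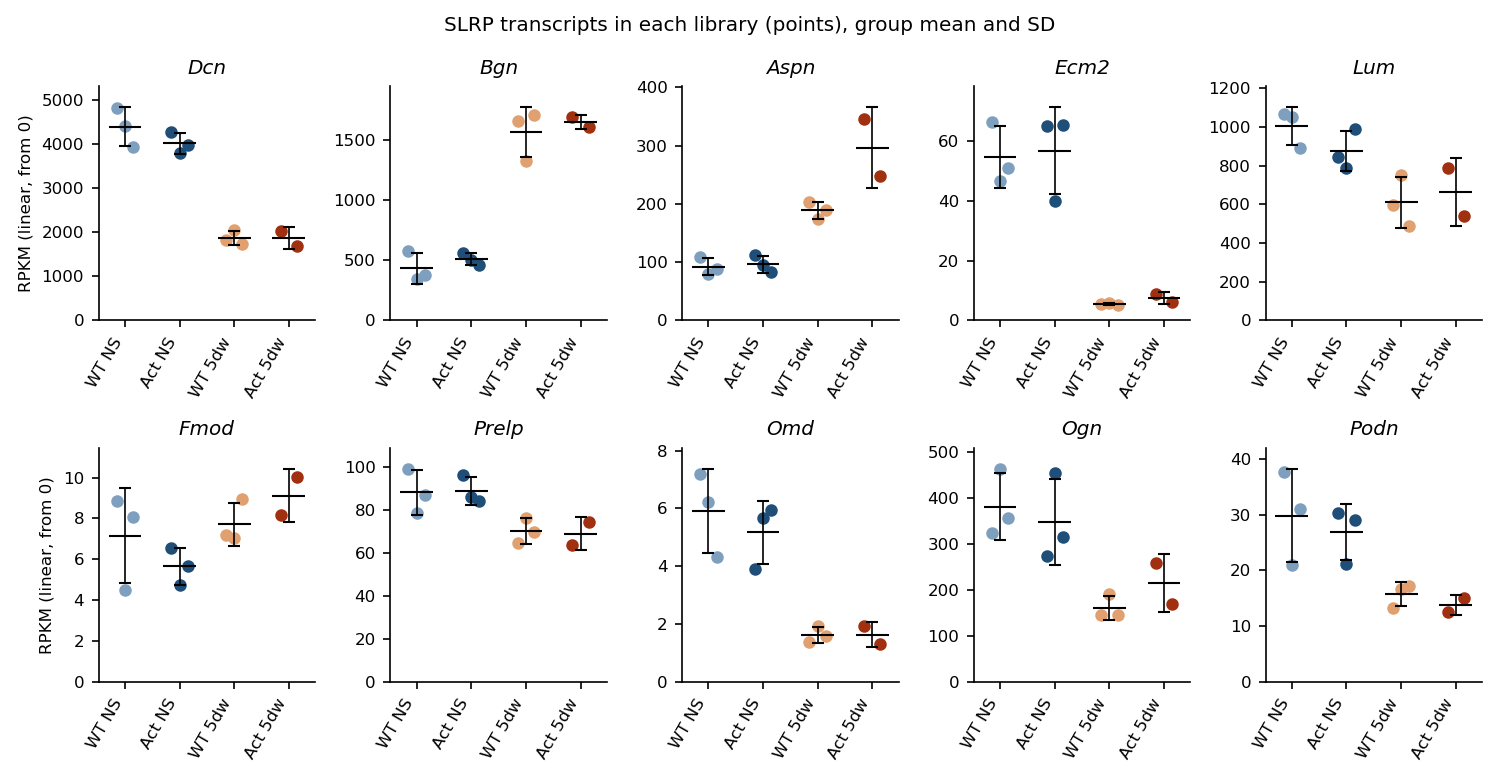
RPKM on linear axes from 0 for each of the 10 SLRP genes, with 1 point per library, a horizontal line at the group mean and bars for 1 SD (n = 3, and n = 2 for Act 5dw). Bgn and Aspn sit higher in all 5 wound libraries than in all 6 NS libraries, 7 members sit lower, and Fmod overlaps, where 8.45% of all genes tested are higher and 38.9% lower without overlap.

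In wounds the order changed. In WT 5dw Dcn was still first (1867 ± 164, SD, n = 3), but Bgn came next (1567 ± 208), followed by Lum (611 ± 132), Aspn (189 ± 14.4), Ogn (161 ± 25.8), Prelp (70.2 ± 5.92), Podn (15.7 ± 2.15), Fmod (7.72 ± 1.05), Ecm2 (5.49 ± 0.256) and Omd (1.62 ± 0.278). Only the ranges of Aspn and Ogn overlapped between neighbours. Act 5dw had the same order, from Dcn (1869 ± 240.4, SD, n = 2) and Bgn (1652 ± 58.1) down to Omd (1.63 ± 0.432), and there the ranges of Fmod and Ecm2 overlapped too. Ecm2 moved below Podn and Fmod, and Bgn rose from rank 53 to 125 of all symbols in NS to rank 11 to 17 in 5dw.

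Comparing 5dw with NS shows how SLRP transcripts differed between wound and normal skin fibroblasts. RNA input (100 ng for NS and 200 ng for 5dw) and keratinocyte marker levels differed between the tissues too, and their part was not tested. In WT fibroblasts 2 members rose, Bgn and Aspn, and 6 fell, Dcn, Lum, Ogn, Omd, Podn and Ecm2 (limma, adjusted p under 0.05). Of all genes tested, 9.45% rose and 48.8% fell, 58.3% in all. The median log2 fold change (log2FC, on log2(RPKM + 0.5)) was -0.80 over the 10 members and -0.40 over all genes, so most genes had a lower RPKM in wounds, and the values of the called members are given below with that shift taken off as well. In Act fibroblasts the same 2 members rose and 5 fell, with Lum not called, while 9.04% of all genes rose and 36.5% fell, 45.6% in all, with medians of -0.55 and -0.31. The WT and Act wound comparisons use different libraries, but the members were chosen with earlier results of these data known.

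Bgn, which encodes the closest relative of decorin, rose the most in WT wounds. It was at 578, 342 and 381 RPKM in WT NS, at 563, 501 and 463 in Act NS, at 1663, 1329 and 1710.3 in WT 5dw, and at 1694 and 1611 in Act 5dw. Every wound library lay above every NS library, by more than 2-fold between the nearest pair. The log2FC was 1.88 (SE 0.20, adjusted p = 3.65e-05 with limma) in WT and 1.70 (SE 0.22, adjusted p = 0.000202) in Act. Relative to the median of all genes the log2FC of Bgn was 2.28 and 2.01. In Act the value of Bgn was close to that of Aspn, and without Act 5dw library 3 Aspn was the higher of the pair (1.85 against 1.74).

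Aspn, which encodes asporin, a member without glycosaminoglycan chains that competes with decorin for collagen, was the other gene that rose. It was at 109, 79.3 and 89.1 RPKM in WT NS and at 112, 94.8 and 82.4 in Act NS. In wounds it was at 203, 174 and 189.5 in WT and at 345 and 248 in Act. All wound libraries were above all NS libraries. Both Act wound libraries were above the 3 WT ones, as held for 7.87% of all genes, while 15.2% were below. The log2FC was 1.04 (SE 0.18, adjusted p = 0.000697 with limma) in WT and 1.61 (SE 0.20, adjusted p = 0.000142) in Act, and relative to the median of all genes it was 1.43 and 1.915.

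Dcn, the most abundant member in every library, fell to less than 50% of its NS level in both genotypes. It was at 4825, 4413 and 3942 RPKM in WT NS, at 4268, 3805 and 3976 in Act NS, at 1824, 2048 and 1728 in WT 5dw, and at 2039 and 1699 in Act 5dw. The highest wound library was well under the lowest NS library. The log2FC was -1.23 (SE 0.15, adjusted p = 7.96e-05 with limma) in WT and -1.11 (SE 0.16, adjusted p = 0.000464) in Act. Lum, its neighbour on chromosome 10, was at 1068, 1050.4 and 892 RPKM in WT NS, at 844, 788 and 988 in Act NS, at 595, 749.6 and 487 in WT 5dw, and at 787 and 540.4 in Act 5dw. The NS and wound values did not overlap, but the highest wound library (787) and the lowest NS library (788) were almost equal. The log2FC of Lum was -0.73 (SE 0.20, adjusted p = 0.00878 with limma) in WT and -0.42 (SE 0.22, adjusted p = 0.147) in Act. Relative to the median of all genes, Dcn was at -0.83 and -0.80, and Lum at -0.33 and -0.11.

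Ecm2, whose protein product has decorin-like repeats, showed the largest change of the 10 members. It was at 66.6, 46.8 and 51.2 RPKM in WT NS and at 65.1, 40.0 and 65.5 in Act NS, against 5.55, 5.71 and 5.21 in WT 5dw. In Act 5dw it was at 8.93 and 6.23. The ratio of the group means was 9.985-fold lower in WT wounds and 7.502-fold lower in Act wounds. The log2FC was -3.19 (SE 0.21, adjusted p = 1.93e-06 with limma) in WT and -2.81 (SE 0.24, adjusted p = 1.5e-05) in Act, or -2.79 and -2.51 relative to the median of all genes. Of the genes tested, 38.9% were lower in all 5 wound libraries than in all 6 NS libraries without overlap, and 8.45% were higher, beside 7 and 2 of the 10 members.

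Ogn and Omd, which lie next to each other and encode osteoglycin and osteomodulin, both had lower values in wounds. Ogn was at 324, 463 and 356 RPKM in WT NS, at 274, 454 and 316 in Act NS, at 145, 191 and 147 in WT 5dw, and at 259 and 170.4 in Act 5dw. Act 5dw library 1 was close to the lowest NS library, and the log2FC was -1.24 (SE 0.23, adjusted p = 0.0012 with limma) in WT but -0.69 (SE 0.26, adjusted p = 0.0487) in Act. Without Act 5dw library 3 the adjusted p of Ogn in Act was 0.362, and leaving out any 1 of 7 other libraries also took it to 0.05 or above. Omd was at 7.18, 6.24 and 4.33 RPKM in WT NS, at 3.92, 5.68 and 5.93 in Act NS, at 1.38, 1.92 and 1.57 in WT 5dw, and at 1.94 and 1.33 in Act 5dw. The groups were clear of each other, and the log2FC was -1.58 (SE 0.21, adjusted p = 0.000145 with limma) in WT and -1.41 (SE 0.23, adjusted p = 0.000858) in Act. Relative to the median of all genes, Ogn was at -0.84 and -0.39 and Omd at -1.18 and -1.10.

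Podn, which encodes podocan, was at 37.6, 20.9 and 31.0 RPKM in WT NS, at 30.4, 21.1 and 29.1 in Act NS, at 13.2, 16.7 and 17.2 in WT 5dw, and at 12.5 and 15.1 in Act 5dw. All wound libraries were below all NS libraries. The log2FC was -0.87 (SE 0.22, adjusted p = 0.00587 with limma) in WT and -0.92 (SE 0.24, adjusted p = 0.0103) in Act, and without Act 5dw library 1 the latter adjusted p was 0.0815. Relative to the median of all genes, Podn was at -0.47 and -0.62.

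Prelp and Fmod were not called in either genotype. Prelp, which encodes a heparin-binding member that anchors basement membranes to collagen, was at 99.1, 78.4 and 87.1 RPKM in WT NS, 96.1, 86.1 and 84.2 in Act NS, 64.6, 76.4 and 69.7 in WT 5dw, and at 63.7 and 74.3 in Act 5dw. These values did not overlap, with a log2FC of -0.32 (95% interval -0.62 to -0.03, adjusted p = 0.0577 with limma) in WT and -0.36 (-0.69 to -0.03, adjusted p = 0.0685) in Act, close to the median of all genes. Its adjusted p in WT was under 0.05 without WT NS library 2 or without Act NS library 1, at 0.0327 at the lowest. Fmod, which encodes fibromodulin, was at 8.87, 4.51 and 8.07 RPKM in WT NS, 6.56, 4.73 and 5.69 in Act NS, 7.18, 7.05 and 8.93 in WT 5dw, and at 8.19 and 10.04 in Act 5dw. The WT groups overlapped (log2FC 0.15, 95% interval -0.34 to 0.64, adjusted p = 0.583 with limma), while both Act wound libraries were above the 3 Act NS libraries (log2FC 0.65, 0.10 to 1.19, adjusted p = 0.0532). The adjusted p in Act was under 0.05 without WT NS library 1, WT NS library 2 or Act NS library 1, at 0.00967 at the lowest.

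**Figure D2:**
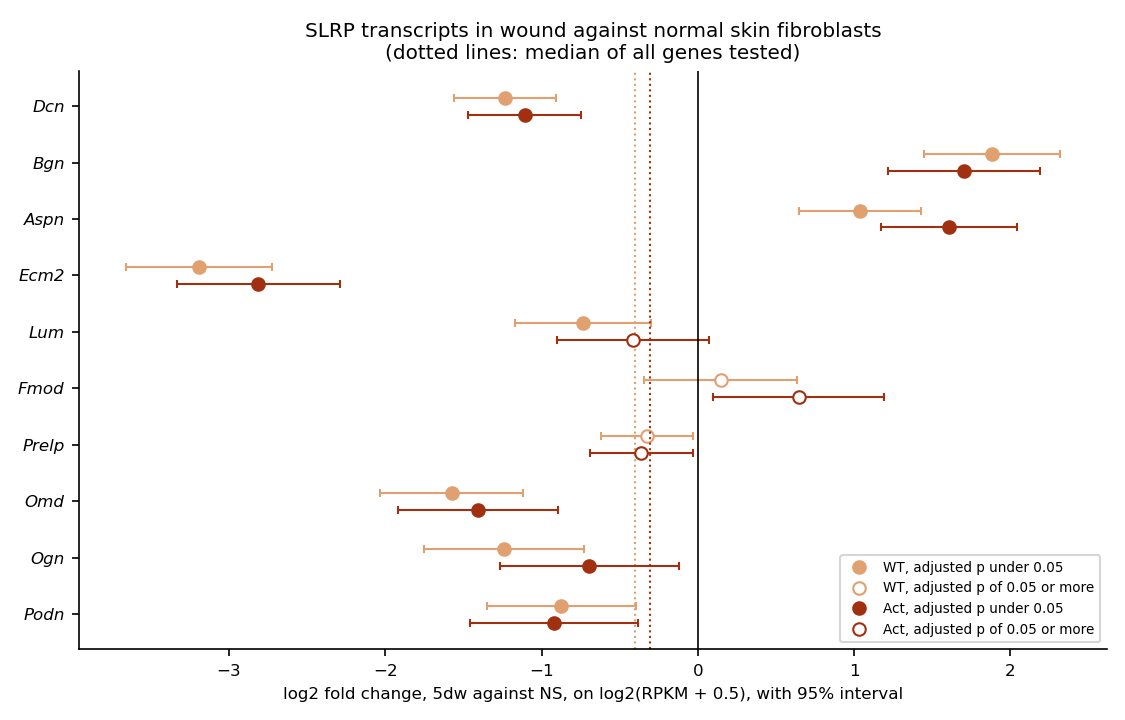
Log2 fold change of each member in 5dw against NS on the scale of log2(RPKM + 0.5), with 95% intervals from limma, for WT (light) and Act (dark). Filled points have an adjusted p under 0.05, and the dotted lines mark the median of all 11979 genes, at -0.40 for WT and -0.31 for Act.

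Because the median gene was lower in wounds, the calls depended in part on how libraries were scaled. With median-ratio scaling, which sets the median of all genes near 0, 2684 genes rose and 2655 fell in WT in place of 1132 and 5846, and in Act 2384 rose and 2492 fell in place of 1083 and 4376. Bgn and Aspn then rose and Dcn, Ecm2 and Omd fell in both genotypes, and Ogn fell in WT (adjusted p = 0.0164 with limma) but not in Act (0.306). Lum (0.297) and Podn (0.157) were no longer called in WT, nor Podn (0.09935) in Act, and Fmod rose in Act (0.012). Without WT NS library 1 and Act NS library 1 2 members were higher and 6 lower in WT, beside 1140 and 5949 of 11835 genes. In Act 3 were higher, with Fmod added, and 5 lower, beside 1009 and 5233 genes. Without WT 5dw library 3 the WT calls were 2 higher and 6 lower, beside 916 and 4861 of 11941 genes.

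The opposite moves of Bgn and Dcn brought the pair close to parity in wounds. The ratio of Bgn to Dcn RPKM was 0.12, 0.0776 and 0.09655 in WT NS, 0.132, 0.132 and 0.117 in Act NS, 0.912, 0.649 and 0.9897 in WT 5dw, and for the Act 5dw libraries it was 0.8305 and 0.948. The log2 ratio was -3.37 ± 0.31 (SD, n = 3) in WT NS and -0.26 ± 0.32 in WT 5dw, a difference of 3.12, and the lowest wound library was far above the highest NS library. The ratio of Aspn to Dcn was 0.018 to 0.0226 in WT NS and 0.0207 to 0.0261 in Act NS. In wounds it was 0.111, 0.0849 and 0.11 in WT and 0.169 and 0.146 in Act, so that both Act wound libraries were above the 3 WT ones. In RPKM, 7.87% of all genes were higher in this way and 15.2% lower. The log2 ratio of Aspn to Dcn was higher by 0.64 in Act 5dw than in WT 5dw, with SDs of 0.15 (n = 2) and 0.22 (n = 3). This difference was not tested. Dcn had a log2FC of -0.00031 in Act 5dw against WT 5dw, so the ratio mostly repeats the Aspn difference.

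The make-up of the family shifted in the same way. Dcn made up 65.6% to 68.2% of the summed member RPKM in the 6 NS libraries and 38.8% to 44.5% in the 5 wound libraries. Bgn went from 5.26% to 8.98% in NS to 28.9% to 39.2% in 5dw, and Aspn from 1.22% to 1.78% to 3.78% to 6.62%. Lum kept a similar part, with 13.5% to 16.4% in NS and 11.2% to 16.3% in 5dw. All 10 members together took 2.37% ± 0.231 (SD, n = 3) of the summed RPKM in WT NS and 1.77% ± 0.0455 (SD, n = 3) in WT 5dw. For Act mice the share was 2.36% ± 0.361 (SD, n = 3) in NS and 1.97% ± 0.28 (SD, n = 2) in 5dw. The highest wound library (2.17%) lay within the NS range of 2.11% to 2.77%.

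**Figure D3:**
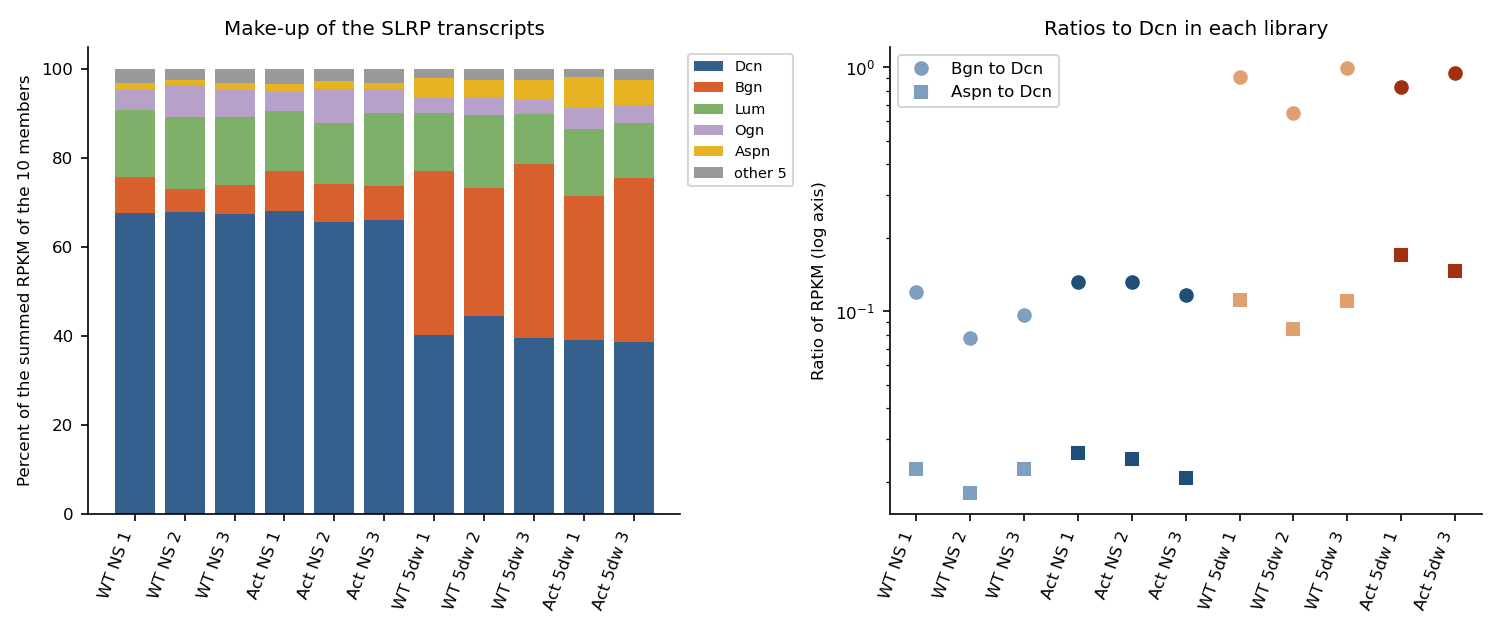
Left, percent of the summed RPKM of the 10 members held by each in every library, with the 5 least abundant on average shown as one bar segment. Right, ratios of Bgn and Aspn RPKM to that of Dcn in every library on a log axis, with the Bgn ratio at 0.0776 to 0.132 in NS and 0.649 to 0.9897 in 5dw.

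Genes of the collagens whose fibrils SLRPs coat moved the other way from the members that fell, 6 of 10 in WT and 5 of 10 in Act. Of 11 such genes, 9 rose in WT wounds and none fell (median log2FC 1.40), and 9 rose in Act wounds (median 1.503), where 9.45% and 9.04% of all genes rose. Col12a1 (log2FC 4.402, adjusted p = 3.47e-07 with limma), Col5a2 (1.67, adjusted p = 9.08e-06) and Col5a1 (1.81, adjusted p = 4.62e-05) had the lowest p in WT. The summed member RPKM was 0.597 to 0.977 of the summed RPKM of these collagens in WT NS and 0.596 to 0.7805 in Act NS. It was 0.173 to 0.208 in WT 5dw and 0.163 to 0.2203 in Act 5dw, with no overlap between tissues. On the log2 scale the WT means were -0.50 ± 0.40 (SD, n = 3) in NS and -2.41 ± 0.13 (n = 3) in 5dw.

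The genotype comparisons ask whether fibroblasts from Act mice had other SLRP levels than those from WT mice. No member was called in NS or in 5dw (limma, adjusted p under 0.05), where 0.0167% and 0.0334% of all genes were called, 2 and 4 genes. In NS 0.00835% of genes were called higher and 0.00835% lower, and in 5dw 0.00835% and 0.025%. At an unadjusted p under 0.05 there were 0 members in NS, beside 824 of all genes, and 1 in 5dw, beside 386. With limma-voom on the recovered reads 0 members were called in either, and 0 and 1 had an unadjusted p under 0.05. The 1 member was Aspn, with a log2FC of 0.63 (SE 0.20, 95% interval 0.20 to 1.07, unadjusted p = 0.00851, adjusted p = 0.971 with limma) in Act 5dw against WT 5dw. Its adjusted p was 0.475 to 1.0 over the alternatives. The size of the Aspn difference rested on which of the 2 Act wound libraries was used, at 0.39 without Act 5dw library 1 and 0.87 without Act 5dw library 3. Without library 1, 0 members and 246 genes had an unadjusted p under 0.05, and without library 3 there were 3 members and 616 genes. With the replicate number as a block, 2 members and 588 genes had an unadjusted p under 0.05 in 5dw, and 0 members were called. Aspn was higher in both Act wound libraries than in the 3 WT ones, as was Ecm2 (log2FC 0.41, 95% interval -0.11 to 0.93), and 7.87% of all genes were higher in this way and 15.2% lower.

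In wounds, the other members differed between genotypes by a log2FC of -0.18 for Podn to 0.40 for Ogn (95% interval -0.18 to 0.97). Without Act 5dw library 1 and without Act 5dw library 3, Ogn was at 0.094 and 0.70 and Ecm2 at 0.17 and 0.65. Dcn was at 0.00 (-0.36 to 0.36) and Bgn at 0.08 (-0.40 to 0.57), so changes larger than these bounds lay outside the intervals. In NS, Fmod was lowest at -0.27 (-0.76 to 0.22) and Bgn highest at 0.26 (-0.17 to 0.70), with the median of all genes at -0.11, and the ranges of the NS groups overlapped for all 10 members, while 0.993% of all genes were higher and 7.98% lower in Act NS without overlap. The interaction of wounding and genotype was called for 0 of 10 members and for 0 of 11979 genes (0.0%) with limma, and 0 members and 400 genes had an unadjusted p under 0.05 (0 members and 313 genes with limma-voom, 0 called). With the replicate block, 2 members and 563 genes had an unadjusted p under 0.05 for the interaction, and 0 of either were called. Its highest values were those of Aspn (0.57, SE 0.27, unadjusted p = 0.0538, adjusted p = 0.999 with limma) Ogn (0.54, SE 0.35) and Fmod (0.499, SE 0.33). Without Act 5dw library 1 these were 0.33 for Aspn, 0.24 for Ogn and 0.64 for Fmod, and without Act 5dw library 3 they were 0.81, 0.85 and 0.36, so the order of the 3 turned with a single library.

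**Figure D4:**
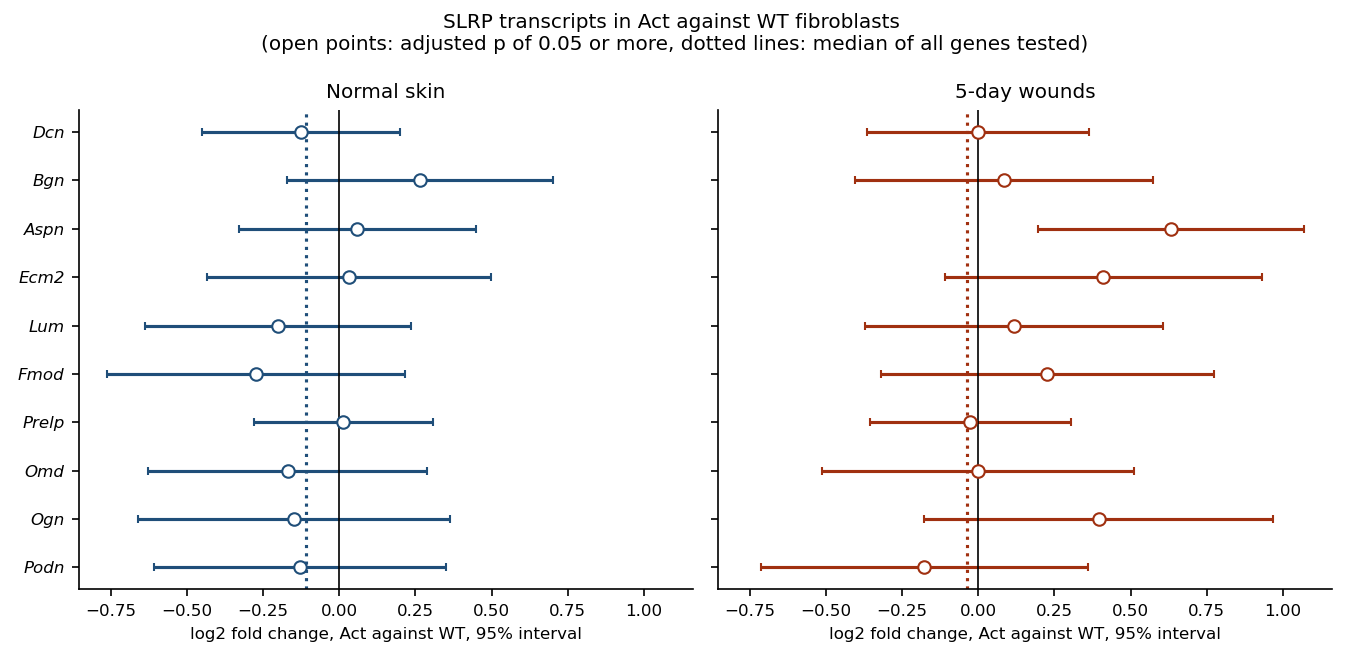
Log2 fold change of each member in Act against WT with 95% intervals from limma, for NS (left, n = 3 and 3) and 5dw (right, n = 2 and 3), with dotted lines at the median of all genes. All points are open because no adjusted p was under 0.05, and in 5dw the interval of Aspn, 0.20 to 1.07, lies above 0.

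The 4 neighbouring members on chromosome 13 did not move as one. Of these genes, which share a strand, Aspn rose in WT wounds with a log2FC of 1.04 while Ecm2 on one side (-3.19) and Omd and Ogn on the other (-1.58 and -1.24) fell. The log2 ratio of Ogn to Aspn was 1.30 to 2.55 in NS, and in 5dw it was -0.54 to 0.13. Cenpp, in which the 4 lie, was higher in wounds of both genotypes (log2FC 0.89, adjusted p = 0.0107, and 0.79, adjusted p = 0.037 with limma). Its NS means, 0.535 RPKM in WT and 0.599 in Act, were under the filter limit, and its 5dw means, 1.40 and 1.36, were above it. These calls are thus not independent of the filter. On chromosome 10, Dcn and Lum fell in WT wounds. The next gene Kera, which encodes the corneal SLRP keratocan, was at 1.96 ± 0.634 RPKM (SD, n = 3) in WT NS and 0.587 ± 0.0901 in WT 5dw. Its log2FC was -1.15 (adjusted p = 0.000938 with limma), but it passed the filter through NS alone, so this call is not independent of the filter. In Act wounds neither Lum nor Kera was called.

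Of 8 further SLRP genes, 3 passed the filter. Besides Kera, Tsku, which encodes tsukushi, rose from 11.5 to 23.6 mean RPKM in WT (log2FC 1.01, adjusted p = 0.0051 with limma) and Podnl1, a relative of Podn, rose from 0.117 to 2.01 (log2FC 2.01, adjusted p = 4.25e-05). Podnl1 was under 1 RPKM in every NS library and Kera in every wound library, so each passed the filter through the tissue where it is higher. The calls of Podnl1 and Kera are thus not independent of the filter. Tsku and Podnl1 rose in Act wounds too, with log2FC of 1.12 and 2.11, and Kera was not called there (-0.49, adjusted p = 0.104). The other 5, Epyc, Optc, Chad, Nyx and Chadl, were at 0.875 RPKM or less in every library.

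The counts of the following lists stand beside 9.45% of all genes that rose and 48.8% that fell in WT wounds, and 9.04% and 36.5% in Act. Counts with median-ratio scaling stand beside another background, 2684 of 11979 genes that rose and 2655 that fell in WT. The chains of decorin and biglycan are started on a linker, extended as chondroitin, partly turned into dermatan by epimerases and then sulfated. Of 12 genes for precursors and the linker, 1 rose (Xylt1, which starts the linker, log2FC 0.37, adjusted p = 0.0195 with limma) and 2 fell in WT wounds (Papss1, -0.39, and Fam20b, -0.42), and under median-ratio scaling Papss1 turned to 0.06 and 5 rose with none falling. Of 13 tested genes of chondroitin and dermatan sulfate synthesis, 5 rose and 3 fell in WT, and 6 rose and 2 fell in Act. Csgalnact1, which starts the chondroitin chain, rose from 1.75 to 11.9 mean RPKM (log2FC 2.49, adjusted p = 3.5e-06), and the chain-extending Chsy1 (1.25, adjusted p = 9.48e-05) and Chsy3 (1.16, adjusted p = 0.000116) rose as well. Of 7 tested genes of keratan sulfate synthesis and tyrosine sulfation, 1 rose and 1 fell in WT. The sulfotransferase gene Chst2 rose (1.03, adjusted p = 0.000155 with limma), but it passed the filter through the wound libraries alone. Its call is thus not independent of the filter. B3gnt2, which extends the chain, fell (-1.22, adjusted p = 0.0072 with limma). In Act 2 of these 7 rose and none fell. With median-ratio scaling the WT counts were 7 higher and 2 lower for the chondroitin and dermatan list and 3 and 1 for the keratan list.

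Of 9 tested protease genes whose products can cleave SLRPs, 5 rose and 1 fell in both genotypes. Bmp1, which encodes the protease that removes the biglycan propeptide, rose from 143 to 325 mean RPKM in WT (log2FC 1.19, adjusted p = 0.000121 with limma), and Mmp13, a collagenase, rose from 1.44 to 20.5 (3.64, adjusted p = 0.000115). Tll1, a relative of Bmp1, fell (-1.80, adjusted p = 4.1e-06). Of 11 receptor genes for soluble SLRPs, 2 rose and 5 fell in both genotypes, and the median log2FC in WT was -0.50 beside -0.40 over all genes. The part of this list that fell in WT was thus near that of all genes (48.8%). The biglycan receptors Tlr2 (-1.34, adjusted p = 0.000459 with limma) and Tlr4 (-1.25, adjusted p = 0.000424) fell and their co-receptor Cd14 rose from 3.23 to 13.7 mean RPKM (1.92, adjusted p = 9.41e-06). Of 17 tested core proteins of other proteoglycan families, 3 rose and 8 fell in WT and 2 rose and 8 fell in Act, and the part that fell in WT was again near that of all genes (48.8%). Named by their low p in WT were Gpc1, a glypican, at a log2FC of 2.92 (adjusted p = 4.99e-06), Cspg4 at -2.09 (adjusted p = 1.94e-05) and Spock2 at -3.07 (adjusted p = 1.48e-06) in WT. With median-ratio scaling the WT counts of the receptors were 2 higher and 3 lower and those of the other proteoglycans 6 and 7. Of all 11979 genes, 2684 were higher and 2655 lower with this scaling. No gene of these lists was called in either genotype comparison.

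Some markers of other cell types moved with wounding as well, not all in 1 direction, and their part in the member results was not tested. The keratinocyte list is given above. Of the tendon markers, which name a tissue rich in Fmod and other SLRPs, Tnmd fell (24.5 to 36.7 RPKM in NS and 1.66 to 3.56 in 5dw) and Scx was at 0.192 RPKM or less in every library. The summed RPKM of 9 measured immune markers was 16.55 to 48.7 in NS and 71.3 to 123 in 5dw. Cd3e, which encodes a part of the CD3 complex, was at 2.94 to 33.9 and 55.5 to 105 RPKM, and the defining Ptprc and Adgre1 were at 0.119 RPKM or less. Endothelial markers summed to 22.1 to 39.1 in NS and 21.1 to 28.1 in 5dw, pericyte and smooth muscle markers to 13.4 to 22.2 and 11.2 to 19.3, cartilage and bone markers to 8.55 to 16.9 and 12.5 to 18.02, Schwann cell markers to 3.31 to 9.43 and 0.467 to 0.723, skeletal muscle markers to 1.37 to 2.89 and 0.826 to 1.74, and adipocyte markers to 0.865 to 1.81 and 0.506 to 1.43. Of 4 tested endothelial markers, 1 rose and 1 fell in WT, and 2 rose and 1 fell in Act. Of 5 tested pericyte and smooth muscle markers, 1 rose and 2 fell in WT, and 2 rose and 1 fell in Act. 1 adipocyte and 1 skeletal muscle marker were at 0 in all wound libraries.

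For each member but Ecm2, the tested gene outside the family whose profile over the 11 libraries was most like it was the one with the smallest root mean square (RMS) difference of centred log2(RPKM + 0.5). For Bgn it was Col5a2, a chain of collagen V (RMS difference 0.15), for Omd it was Timp2, a metalloproteinase inhibitor (0.16), and for Podn it was Smad6, an inhibitory SMAD (0.0687). The others were Clk1 for Dcn (0.0949), Medag for Lum (0.14), Plce1 for Ogn (0.10), Ap4m1 for Prelp (0.0731), 1600014C10Rik for Fmod (0.17) and Adamts17 for Aspn (0.19). Within the family, on this scale, Dcn and Omd were nearest to each other (0.25), as were Lum and Prelp (0.28) and Bgn and Aspn (0.35). Ecm2 was 0.84 from its nearest, Omd. The pseudocount makes the fall of Omd, at 1.33 to 1.94 RPKM in wounds, look smaller. The ratio of WT group means was 0.275 for Omd and 0.425 for Dcn, so their nearness depends on the scale.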

How the data were processed

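Fibroblast RNA was sequenced by the authors as stranded 100 bp poly-A reads, aligned to GRCm38 in CLC Genomics Workbench, and deposited as RPKM per gene symbol in 11 libraries (the labels also name edgeR). The authors' test on counts was not run here because the values used are RPKM. Read numbers were recovered from the RPKM steps as whole reads, within 0.03 reads, for 11591 of 11979 tested genes (96.8%), giving 18649321 to 39702138 mapped reads per library. Intervals rest on the spread between libraries.

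Genes that reached 1 RPKM in 2 libraries or more were tested with limma 3.58.1 (R 4.3.3) on log2(RPKM + 0.5), with a trend, 1 mean per group over all 11 libraries and Benjamini-Hochberg adjustment within each comparison. The pseudocount understates changes of low genes. Scripts were tested on simulated data. Alternatives were pseudocounts of 0.1 and 1, no filter, a filter of 5 RPKM, median-ratio and quantile scaling, no trend, a replicate block, only the compared groups, limma-voom on recovered reads and leaving out each library. Leaving out WT NS library 1 and Act NS library 1 together was chosen after seeing the data.

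Members and gene lists were chosen with earlier results of these data known. List genes named are up to 3 per list with the lowest p in WT wounds and up to 2 in the genotype comparisons, among those called, and Scx, Ptprc, Adgre1, Cenpp and the overlapping genes were added after their values were seen. Deviations of same-numbered libraries had correlations of 0.334 to 0.554 for WT NS with Act NS (other numbers 0.187 at most). The values were 0.109 to 0.188 for WT NS with WT 5dw (0.0800 at most) and 0.195 to 0.263 for Act NS with WT 5dw (0.0198 at most). The numbers may thus pair those samples, but pairing was not tested. Act 5dw shares only 2 numbers with each other group. There the same-number correlations were -0.124 to 0.158 for WT NS, 0.0187 to 0.143 for Act NS and -0.0777 to 0.189 for WT 5dw. Labels do not say whether pools shared a sorting day. Promoters came from RefSeq. Protein sequences were not used here. The gene most like Ecm2 is not reported here.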

Additional observations from a re-analysis of the deposited data

How the results depend on the processing

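The 2 rises in WT wounds (Bgn, Aspn) held under all alternatives and under the leave-out of the NS pair. The number of members that fell in WT was 4 under median-ratio and quantile scaling and 6 or 7 otherwise, while 2655 and 2328 of all genes fell under these scalings in place of 5846. In Act wounds 3 members fell with no filter (where Dcn had an adjusted p of 0.0517 with limma) and with median-ratio scaling, in place of 5, and 4 or 5 otherwise, while 2 or 3 rose. The replicate block changed no member call, but took the members with an unadjusted p under 0.05 from 1 to 2 in Act 5dw against WT 5dw and from 0 to 2 in the interaction (Dcn log2FC of -1.23 in WT and -1.10 in Act wounds with the block). With each library left out, the WT difference in the log2 ratio of Bgn to Dcn was 2.96 to 3.30.

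Signs that turned were of values not called in the reported setting. Wounds against NS in WT: Prelp was 0.13 with median-ratio scaling, and Fmod was -0.13 to 0.32 with 1 library left out. Act 5dw against WT 5dw: Dcn was 0.041 (median-ratio), 0.069 (quantile), 0.012 (replicate block) and 0.00098 (limma-voom), Bgn -0.0069 (block), Omd -0.0020 (pseudocount 0.1) and -0.022 (limma-voom), and Prelp 0.016 (median-ratio) and 0.052 (quantile). With 1 library left out Dcn was -0.13 to 0.13, Bgn -0.030 to 0.15, Lum -0.15 to 0.39, Omd -0.21 to 0.21 and Prelp -0.14 to 0.084. Act NS against WT NS: Dcn was 0.016 and Podn 0.012 (median-ratio), and Omd 0.15 without the NS pair. With 1 library left out Ogn was -0.36 to 0.0061, Omd -0.36 to 0.0015, Aspn -0.052 to 0.18, Prelp -0.067 to 0.10, Podn -0.36 to 0.056 and Ecm2 -0.087 to 0.26. Interaction: Omd was -0.15 without the NS pair. With 1 library left out Dcn was -0.0057 to 0.26, Omd -0.039 to 0.38, Prelp -0.15 to 0.070 and Podn -0.23 to 0.18. The cause was not tested.

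Genes called in all were 3104 in Act wounds and 3771 in WT wounds with a filter of 5 RPKM, which tests fewer genes (5459 and 6978 in the main setting), 3505 in Act without Act 5dw library 3, 0 to 18 in Act 5dw against WT 5dw, 0 to 9 in the NS comparison (11 without the NS pair) and 0 to 10 in the interaction. Act 5dw has 2 libraries, with 20531292 and 25626301 recovered mapped reads, against 38740404 to 39702138 in WT 5dw. The approximate read number per sample given in the paper is below these WT 5dw totals. The part of depth in the genotype comparison was not tested.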
